A study of Mus musculus with 17 samples.

Results

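The 7 genes described here are Neat1, Malat1, Meg3, Miat, Snhg11, Rian and Mirg, of 38355 gene identifiers in the count files, and each symbol matched 1 identifier. They were listed as abundant nuclear long noncoding RNAs and were in part selected on their counts in these libraries, in both comparisons of age. Their levels and age differences are therefore a description. No p is given for them, and the calls counted for them are not evidence of a change with age. RNA was taken from hand-dissected hippocampus of untreated wild type C57BL/6J mice, a brain region needed for memory formation. Single-end libraries came from mice aged 3 months (3M, n = 5) and 24 months (24M, n = 6), and paired-end libraries from mice aged 3 months (3M, n = 3) and 29 months (29M, n = 3), 17 libraries in all. The 29M mice were bought at 24 months of age and kept on by the study. Library type thus changes together with the old age compared, so 24M samples were compared with single-end and 29M samples with paired-end 3M samples. 24M replicates 1 and 4 differed by less than the sampling noise (variance ratio 0.406, where counting noise alone gives about 1), were counted as 1 sample, and leave n = 5 at 24M.

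Long noncoding RNAs are transcribed like messenger RNAs but are not translated, and many act in the nucleus. Neat1 is the scaffold of paraspeckles, nuclear bodies that hold back RNAs and proteins. Malat1 collects at nuclear speckles, where splicing factors are stored, and Miat (also called Gomafu) forms its own nuclear spots in neurons. Snhg11 carries small nucleolar RNAs in its introns. Meg3, Rian and Mirg lie in a row in the imprinted Dlk1-Dio3 domain, are expressed from the maternal chromosome, and host small nucleolar RNAs and microRNAs. In whole tissue, fewer cells of a type and less RNA per cell cannot be told apart.

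The gene models of GENCODE M21 (GRCm38) place Neat1 (ENSMUSG00000092274) at chr19:5824708-5845478 and Malat1 (ENSMUSG00000092341) at chr19:5795690-5802672, both on the minus strand and 22036 bp apart. For both, exons cover 100% of the gene's span. Meg3 (ENSMUSG00000021268) is at chr12:109541001-109571726, Rian (ENSMUSG00000097451) at chr12:109603940-109661716 and Mirg (ENSMUSG00000097391) at chr12:109729764-109749460, all on the plus strand. Here exons cover 58.9% of the span of Meg3, 31.6% of Rian and 37.0% of Mirg. Miat (ENSMUSG00000097767) is at chr5:112213228-112229395 on the minus strand and Snhg11 (ENSMUSG00000044349) at chr2:158375638-158386145 on the plus strand. GENCODE lists Snhg11 as protein-coding and Rian as a processed transcript, and the other 5 as lincRNA. All 7 carry its tag for hosts of small RNAs, which 4.22% of the annotated genes in the files carry. RefSeq hairpins inside the genes number 14 in Mirg, 3 in Rian (Mir341, Mir370 and Mir1188) and 1 in Meg3 (Mir770), and GENCODE places 13 small nucleolar RNAs inside Rian and 2 inside Snhg11. Although they carry the tag, Neat1, Malat1 and Miat hold no such hairpin, and no microRNA or small nucleolar RNA in GENCODE.

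The libraries were made from polyA-selected RNA, so the 3′ ends of these transcripts bear on how they were captured, and for that reason the ends of the most studied are shown. Mature Malat1 and the long form of Neat1 end, as is known, not in a polyA tail but in a genome-encoded A-rich tract, which folds with upstream U-rich stretches after the RNA is cut by RNase P. Capitals mark that tract, found as 4 or more A, GC and 4 or more A, in GENCODE transcripts:
Malat1 (ENSMUST00000172812), chr19:5795962-5796039, minus strand: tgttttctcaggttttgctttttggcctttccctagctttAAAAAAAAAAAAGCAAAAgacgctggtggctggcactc
Neat1 long form (ENSMUST00000173672), chr19:5824708-5824758, minus strand: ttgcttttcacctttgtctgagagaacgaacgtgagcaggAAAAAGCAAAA
The tract of Malat1 lies 292 bases before the end of the annotated transcript, and the bases after it open the tRNA-like RNA that RNase P releases. The long form of Neat1 (20771 bases) ends with the tract. Such a stretch occurs in 1.17% of the 134529 GENCODE transcripts of at least 200 bases, and among the 7 genes also somewhere in a Snhg11 transcript.

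The polyadenylation signal AATAAA, in capitals in the last 60 bases of these transcripts, stands near the annotated end of the short form of Neat1 and of Malat1, Meg3 and Mirg:
Neat1 short form (ENSMUST00000174287), chr19:5842307-5842366, minus strand: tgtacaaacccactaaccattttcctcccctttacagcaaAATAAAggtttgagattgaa
Malat1 (ENSMUST00000172812), chr19:5795690-5795749, minus strand: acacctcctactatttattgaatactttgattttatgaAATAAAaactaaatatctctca
Meg3 (ENSMUST00000146701), chr12:109571667-109571726, plus strand: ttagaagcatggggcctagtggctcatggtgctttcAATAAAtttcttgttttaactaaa
Mirg (ENSMUST00000182185), chr12:109749399-109749458, plus strand: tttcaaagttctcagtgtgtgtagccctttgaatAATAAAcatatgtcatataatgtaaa
The transcripts looked at for Rian and Snhg11 also hold AATAAA in their last 50 bases, while the long form of Neat1 and the transcript of Miat do not. Over all transcripts the share with the signal there was 28.0%, and over long noncoding transcripts 23.6%. A file of counts per gene adds up all forms of a gene, so the short and long Neat1 were not separated, and the kit used does not mark strand.

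The depth behind these values was 9213474 to 28438296 gene counts per library. Summed over the 17 libraries, Meg3 had 297955 counts, Snhg11 155537, Malat1 127793, Rian 82980, Miat 67942, Neat1 30865 and Mirg 1832. Together the genes took 0.188% to 0.291% of all gene counts in the 3M single-end samples and 0.193% to 0.4995% at 24M, with overlapping ranges. The 0.4995% is that of 24M replicate 3. The share was 0.260% to 0.316% in the 3M paired-end samples and 0.389% to 0.443% at 29M, without overlap. The genes were in part picked on these counts. How often such sums lie apart was not counted, and of single genes 11.9% lay all above at 29M.

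Levels are given on the counts-per-million scale (CPM, after TMM normalisation within each comparison). To compare genes they were divided by the length of the merged exons in kb, and differences between the library types were not read, because these tables were normalised apart. In the 3M single-end samples Malat1 stood at 64.8 ± 14.03 CPM per kb (SD, n = 5), Snhg11 at 50.9 ± 12.9 and Meg3 at 47.9 ± 13.2, and these neighbours did not differ beyond their spread. Miat followed with 22.1 ± 6.14 CPM per kb, Rian with 14.1 ± 0.425, Neat1 with 3.81 ± 0.800 and Mirg with 0.729 ± 0.0716. The order in the 3M paired-end samples (n = 3) was Snhg11 at 69.4 ± 8.62 CPM per kb, Meg3 at 63.9 ± 8.04, Malat1 at 39.9 ± 11.8, Miat at 29.6 ± 1.58, Rian at 21.8 ± 1.25, Neat1 at 4.09 ± 0.531 and Mirg at 1.08 ± 0.207. Here too Snhg11 and Meg3 lay within their spread.
The word abundant fits these genes unevenly. In the 3M single-end samples 77.8% to 96.4% of the 15683 tested genes had a lower level per kb than Rian, Miat, Meg3, Snhg11 and Malat1. For Neat1 this was 44.7%, although 80.9% had a lower CPM. The merged exons of Neat1 span 20771 bases and its short form 3004, and the 2 forms were not separated. Its level per kb would be higher if mainly the short form was captured, which was not measured. Merged exons also exceed the longest transcript for Rian (18234 against 8089 bases) and Mirg (7292 against 3822). The order per kb thus depends on the length used. Mirg exceeded 25.8% of the tested genes in CPM and 15.4% per kb and is a low-level gene in these libraries. Whether the RNAs were in the nucleus was not measured.

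**Figure D1:**
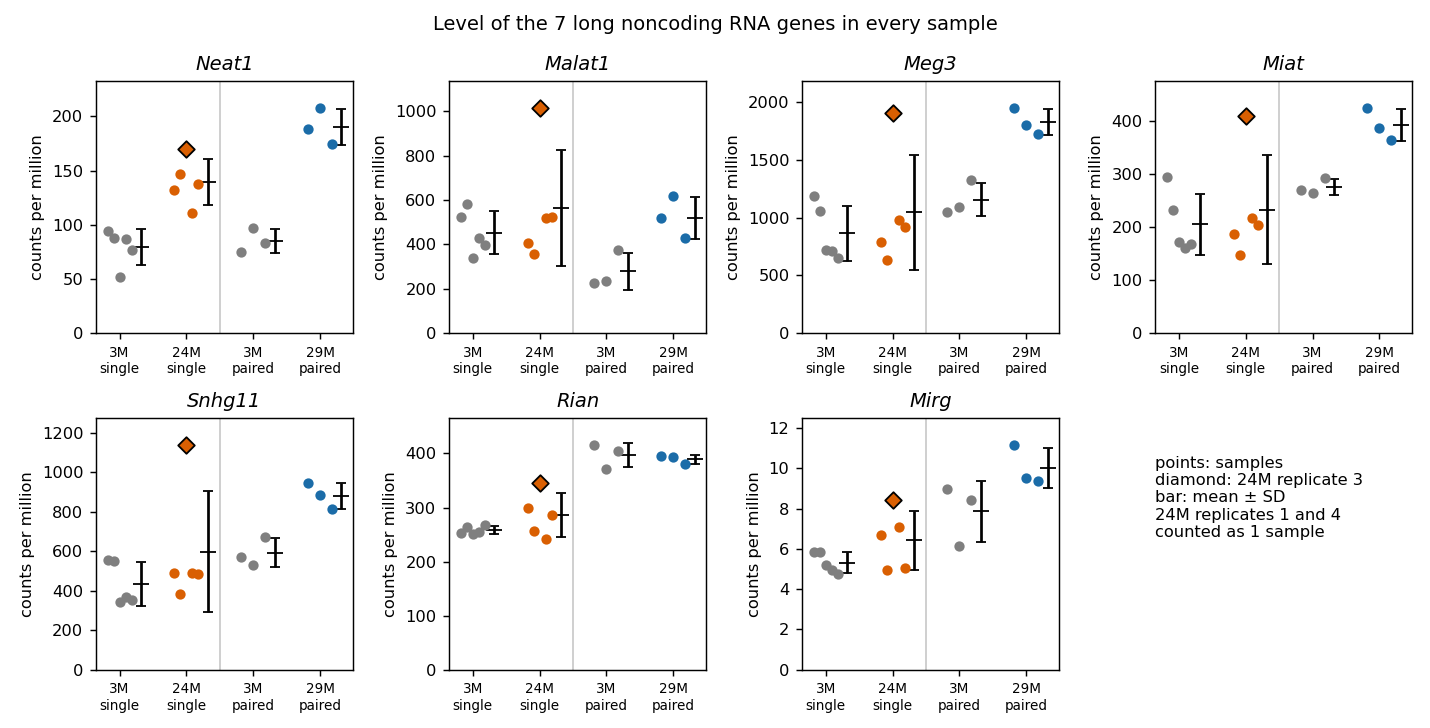
Level of each gene in every sample, in CPM (y axis from 0), by age and library type (x axis); points are samples, the diamond is 24M replicate 3, and the bar is the mean ± SD (n = 5 and 5 single-end, 3 and 3 paired-end). Neat1 lies higher in all aged samples than in all 3M samples of the same library type, and 24M replicate 3 lies far above the other 24M samples for Malat1, Meg3, Miat and Snhg11.

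Neat1, the paraspeckle scaffold, was the 1 gene of the 7 whose aged samples lay above all 3M samples in both comparisons. In the 3M single-end samples it stood at 93.8, 87.6, 51.6, 86.4 and 76.3 CPM, and at 24M at 132 (replicates 1 and 4), 147, 169.5, 111 and 138 CPM. The lowest 24M sample thus lay above the highest 3M sample, and the third 3M sample was the lowest of all. The log2 fold change was 0.82 (SE 0.14), a ratio of 1.77. In the paired-end samples Neat1 stood at 75.2, 96.9 and 82.8 CPM at 3M and at 189, 208 and 174.5 CPM at 29M, where the groups were far apart. There the log2 fold change was 1.16 (SE 0.08), a ratio of 2.23, with 190.3 ± 16.6 CPM at 29M against 84.9 ± 11.02 at 3M (SD, n = 3).

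A call needed both a log2 fold change of 0.5 or more in size and an adjusted p not above 0.05 in edgeR's quasi-likelihood test. Over all genes tested, 1.98% were called at 24M (1.34% higher and 0.638% lower), 3.15% had all aged samples above all 3M samples and 3.42% had them all below. At 29M 1.45% were called (1.34% higher and 0.113% lower), and 11.9% lay all above and 10.5% all below. At 24M, 1 of the 7 genes was called higher (Neat1), 1 did not overlap, and all 7 were above 0. At 29M, 5 of the 7 were called higher (Neat1, Malat1, Meg3, Miat and Snhg11), 6 did not overlap, and 6 were above 0. The median log2 fold change of the 7 was 0.30 at 24M and 0.57 at 29M, beside -0.0032 and -0.0021 over all tested genes. At 24M this median was 0.060 without replicate 3, -0.074 with the share of reads without a feature as a covariate, and 0.018 with both. All 7 passed the filter on low counts in both comparisons. These counts come from the contrasts on which the genes were picked.

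Malat1, the nuclear speckle RNA, had overlapping groups at 24M and groups that did not overlap at 29M. It stood at 522, 580.0, 336, 429 and 396 CPM in the 3M single-end samples and at 407, 356, 1014, 519.6 and 523 CPM at 24M. 24M replicate 3, at 1014 CPM, stood alone, and the remaining 24M samples fell inside the 3M range. The log2 fold change was 0.32 (SE 0.24), and -0.011 without that replicate. At 29M Malat1 stood at 516, 616 and 428 CPM against 226, 235 and 374 CPM in the 3M samples, which is a log2 fold change of 0.90 (SE 0.16). The third 3M sample was close to the third 29M sample. With DESeq2 Malat1 missed the threshold for a call at 29M (log2 fold change 0.90, SE 0.29), as it did without 29M replicate 1 (0.91, SE 0.19) and with all 4 groups in 1 fit (0.90, SE 0.30).

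Miat, the neuronal nuclear RNA, ranged from 160.3 to 293 CPM in the 3M single-end samples and from 146 to 410 CPM at 24M (log2 fold change 0.19, SE 0.24). Its highest value at 24M was again that of replicate 3, and without it the log2 fold change was -0.13. At 29M it ranged from 364 to 424 CPM against 264 to 292 CPM at 3M, a log2 fold change of 0.51 (SE 0.05). This is just inside the fold threshold for a call, and leaving out single libraries took it below the threshold in 3 of 6 cases, with a lowest value of 0.45 without 29M replicate 1. The call was also lost with totals of reads on genes without TMM (0.4999), with totals of all lines in the file (0.48) and with all 4 groups in 1 fit (0.50, SE 0.27).

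Snhg11, the small nucleolar RNA host, stood at 557, 551, 344, 367 and 351 CPM in the 3M single-end samples and at 489, 384, 1139, 490.3 and 487 CPM at 24M. Replicate 3 was more than the sum of any pair of the other 24M samples, which themselves lay inside the 3M range. The log2 fold change of 0.46 (SE 0.26) is just outside the fold threshold and was 0.08 without replicate 3. At 29M the levels were 944, 884 and 813 CPM against 569, 532 and 674 CPM at 3M (log2 fold change 0.57, SE 0.08). The 29M samples were all higher than the 3M samples.

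Meg3, the first transcript of the imprinted row, had the highest CPM of the 7 genes. It stood at 1185, 1056, 721, 713 and 654 CPM in the 3M single-end samples and at 788, 632, 1908, 980.5 and 915 CPM at 24M. The first 2 3M samples lay above every 24M sample except replicate 3. The log2 fold change was 0.27 (SE 0.26), and -0.071 without replicate 3. At 29M Meg3 stood at 1949, 1801 and 1726 CPM against 1050.1, 1096 and 1322 CPM at 3M (log2 fold change 0.66, SE 0.07), and the groups were apart.
Rian, which follows Meg3 on the chromosome, differed little with age. It stood at 253, 264, 250.3, 255 and 268 CPM in the 3M single-end samples and at 299, 257, 346, 241 and 285 CPM at 24M (log2 fold change 0.15, SE 0.08). The fold change was 0.060 without 24M replicate 3 and 0.012 with the share of reads without a feature as a covariate. At 29M the values of 394, 393 and 380.1 CPM lay among the 416, 372 and 404 CPM of the 3M samples (log2 fold change -0.03, SE 0.04). Rian was the only 1 of the 7 genes with a fold change below 0 in either comparison.
Mirg, the microRNA host at the end of the row, ranged from 4.74 to 5.86 CPM at 3M and from 4.93 to 8.45 CPM at 24M (log2 fold change 0.30, SE 0.15). The fold change was 0.16 without 24M replicate 3 and 0.14 with the share of reads without a feature as a covariate. At 29M it ranged from 9.36 to 11.2 CPM against 6.14 to 8.98 CPM at 3M (log2 fold change 0.37, SE 0.15). These groups did not overlap, yet the gene was not called, and without 3M replicate 2 the fold change was 0.20. Beside the gene's 1832 counts, the antisense gene Gm24321 had 14, and without strand the counts of such a pair cannot be told apart. GENCODE also places antisense genes over Malat1 (Gm37376), Meg3 (Gm26906) and Miat (Gm26953), with 0 counts or no line in the files. The same limit holds for them. The sense-strand gene Gm26945, which overlaps Rian, had 276 counts.

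Within the row of imprinted transcripts, ratios of CPM are a description too, since the genes were in part picked on these counts. At 29M the ratio of Meg3 to Rian CPM was 4.69 ± 0.219 (SD, n = 3) against 2.91 ± 0.376 at 3M, with no overlap. How often other pairs of genes lie apart in ratio was not counted. Of single genes tested at 29M, 11.9% lay all above and 10.5% all below. In the single-end samples the ratio was 3.58 ± 1.25 at 24M and 3.36 ± 0.945 at 3M (n = 5 each), and the groups overlapped. The ratio of Meg3 to Mirg overlapped in both comparisons, with 174 to 189.7 at 29M against 117 to 178 at 3M, and 118 to 226 at 24M against 138 to 202 at 3M. The ratio of Meg3 to Miat, genes on different chromosomes, also had no overlap at 29M, with 4.597 to 4.75 against 3.89 to 4.53 at 3M. In the single-end samples it was 4.21 to 4.66 at 24M and 3.89 to 4.55 at 3M, which overlap.

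**Figure D2:**
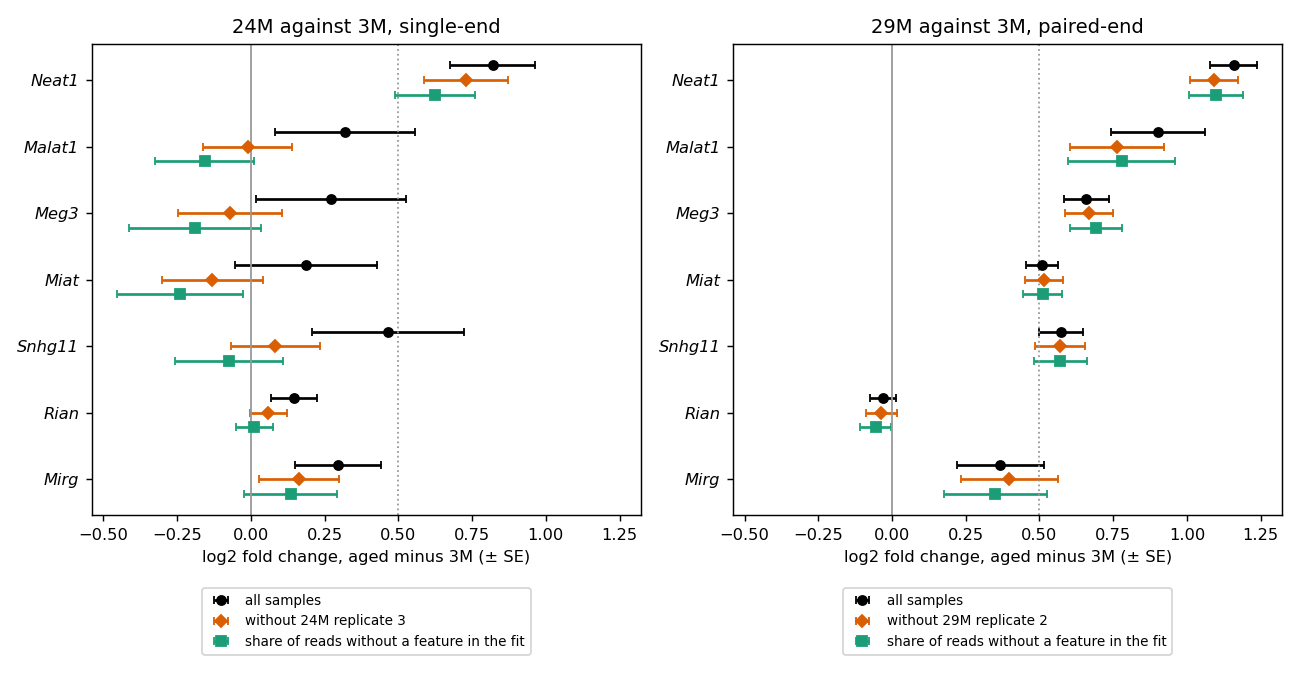
Log2 fold change of each gene, aged minus 3M, with its standard error (x axis), at 24M (left) and 29M (right), with all samples, without 1 aged replicate (24M replicate 3 or 29M replicate 2), and with the share of reads without a feature added to the fit; the dotted line is the fold threshold of 0.5. At 24M Malat1, Meg3 and Miat move from above 0 to below it without replicate 3, while at 29M Neat1, Malat1, Meg3, Miat and Snhg11 stay above the dotted line in the 3 fits drawn. Without 29M replicate 1, which is not drawn, Miat was at 0.45.

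24M replicate 3 carried much of what was seen at 24M. Its CPM exceeded the mean of the other 24M samples (n = 4) 2.46 times for Snhg11, 2.302 times for Meg3, 2.25 times for Malat1 and 2.17 times for Miat. For Mirg, Neat1 and Rian the ratio was 1.43, 1.29 and 1.28. The other 24M samples stood at 0.919 to 1.07 times the 3M mean for Malat1, Meg3, Miat and Snhg11, but at 1.67 times for Neat1, and all of them lay above all 3M samples for Neat1. Without replicate 3 the log2 fold change of Neat1 was 0.73 (SE 0.14) and the gene was still called. Over all 15683 genes tested, replicate 3 was at least 1.5 times the next highest 24M sample in 0.746%. In a description added after the data had been seen, the median deviation of the other 685 long noncoding RNA genes from their group mean was 0.12 on the log2 scale in this sample, the highest of the 16 samples, and -0.0055 for protein-coding genes.

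Each count file also gives the reads that mapped uniquely but to no annotated exon, such as reads within introns or between genes. The reads of a file are here those on genes, without a feature, ambiguous or not unique. Of these the share was 8.59% to 10.2% in the 3M single-end libraries and 9.79% to 12.7% at 24M, where replicate 3 had the 12.7%. It was 11.4% to 12.8% in the 3M paired-end libraries and 11.98% to 15.9% at 29M, where replicate 2 had the 15.9%. In that 29M replicate Neat1 and Malat1 had their highest 29M values, and Meg3, Miat, Snhg11, Rian and Mirg did not.
With the share as a covariate, the log2 fold change at 24M was 0.62 (SE 0.14) for Neat1, which then missed the threshold for a call, -0.16 for Malat1, -0.19 for Meg3, -0.24 for Miat and -0.074 for Snhg11. At 29M it was 1.10 for Neat1, 0.78 for Malat1, 0.69 for Meg3, 0.51 for Miat and 0.57 for Snhg11, and all 5 were still called. At 24M the sample with the highest share is replicate 3. Leaving that sample out as well, a fit chosen after the data had been seen, gave 0.54 (SE 0.13) for Neat1, not called.

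Within groups, where age and library type are removed by subtracting each group's mean, the genes were set beside that share over 16 samples. Because the genes were listed with this share in view, the correlations are a description and no p is given. Pearson's r was 0.61 and Spearman's rho 0.51 for Rian. Without the 2 samples farthest from the median share, 29M replicate 2 and 24M replicate 3, r was 0.45. For the other 6 genes r was 0.33 (Mirg) to 0.58 (Malat1), and for Meg3 without those 2 samples r was 0.026. Without 24M replicate 3 alone, r was 0.33 for Rian, -0.057 for Meg3 and 0.34 for Neat1. In the 10 single-end samples r was 0.82 for Rian, 0.80 for Malat1, 0.79 for Snhg11 and 0.53 (Mirg) to 0.68 (Miat) for the rest. Without the 2 farthest of these samples it was 0.45 for Rian and 0.82 for Neat1. In the 6 paired-end samples r was -0.18 (Meg3) to 0.44 (Rian), and for Rian -0.0061 without the 2 farthest. With CPM taken over all reads in the file, r for Rian was 0.15.

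**Figure D3:**
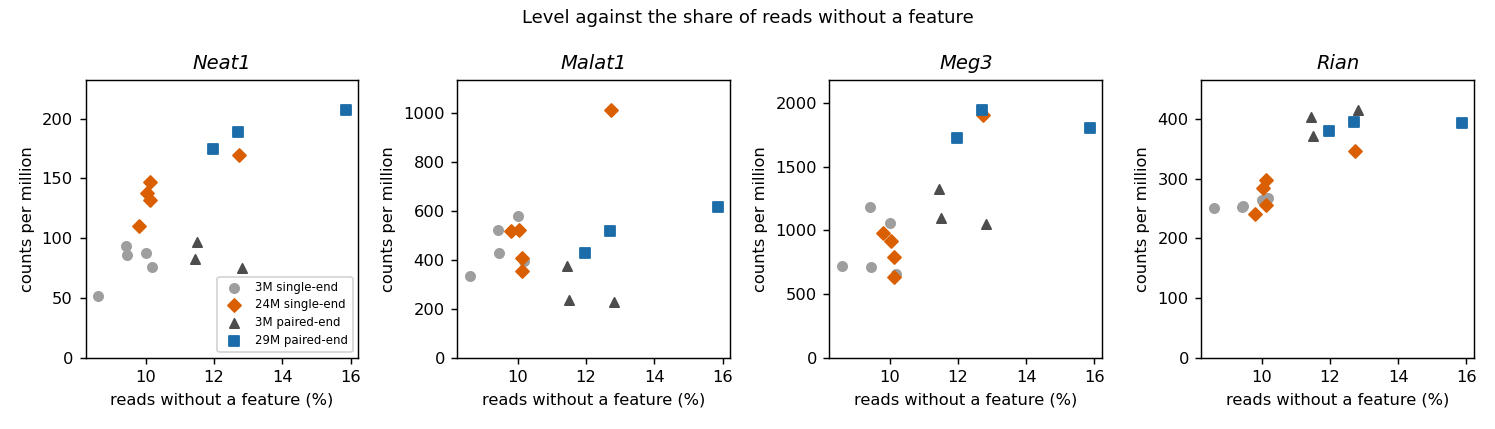
Level of Neat1, Malat1, Meg3 and Rian in CPM (y axis from 0) against the share of reads without a feature in percent (x axis), 1 point per sample in 4 groups. The 24M sample at 12.7% has the highest 24M level of each gene, whereas the 29M sample at 15.9% is not the highest for Meg3 or Rian.

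Malat1, Meg3, Miat and Snhg11 varied together from sample to sample inside groups. Over 16 samples the r of their 6 pairs was 0.85 to 0.98 and rho 0.79 to 0.97, with Meg3 and Miat the closest pair (r = 0.98). Without the 2 samples farthest from the median, which include 24M replicate 3, r was 0.64 to 0.96. Over the 10 single-end samples r of the 6 pairs was 0.92 to 0.99, and 0.76 to 0.97 without the 2 farthest. Over the 6 paired-end samples it was 0.65 (Malat1 and Miat) to 0.91, where Meg3 and Miat had 0.83. Without the 2 farthest of those, which leaves 4 samples, it was 0.24 (Meg3 and Miat) to 0.97 (Malat1 and Meg3). Because the genes may have been picked for this, no p is given for the pairs. Over all 16 samples Neat1 went with none of the others as closely (r of 0.0046 with Mirg to 0.52 with Malat1). Nor did Rian (0.36 with Neat1 to 0.68 with Snhg11). Mirg had r of 0.72 to 0.75 with Meg3, Miat and Snhg11. For Neat1 with Malat1, Meg3, Miat and Snhg11, r depended on the samples. It was 0.46 to 0.57 in the single-end samples, and 0.75 to 0.79 without the 2 farthest. In the paired-end samples it was -0.12 to 0.27, and 0.75 to 0.92 over the 4 left without the 2 farthest. Without 24M replicate 3 alone it was 0.24 to 0.39. Both genes of a pair were read from the same library, and TMM scales all genes of a sample together.

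**Figure D4:**
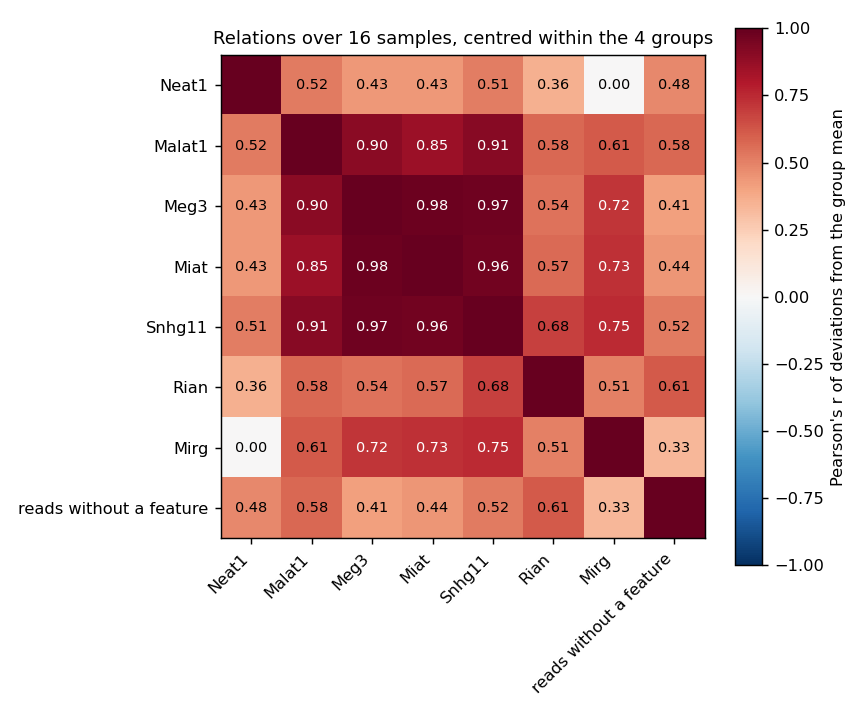
Pearson's r between the genes' deviations from their group mean in log2 CPM, and with the share of reads without a feature, over 16 samples; colour and number give r. Malat1, Meg3, Miat and Snhg11 form a block of 0.85 to 0.98, and Neat1 has no r above 0.52.

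Among 14898 genes tested in both comparisons, the genes most like each of the 7 by the same within-group r were listed over the 16 samples. The highest of so many values over 16 samples can be large without any relation. Their chance level was not computed, so the names are a description. For Meg3 these were Miat (r = 0.98), Leng8 (0.98) and Snhg11 (0.97). For Miat they were Meg3 (0.98), Trank1 (0.97) and Odf2 (0.97), and for Snhg11 Meg3 (0.97), Trank1 (0.97) and Leng8 (0.97). Leng8 also came second for Malat1 (0.91), after Qtrt2 (0.92), a subunit of the enzyme that puts queuine into tRNAs, and before Col11a1 (0.91), a collagen. The genes most like Rian were Clasp2 (0.92), which binds growing microtubule ends, Adam23 (0.90) and Myt1l (0.90), a neuronal transcription factor. Those most like Neat1 were Fbxw15 (0.90), D930015M05Rik (0.88) and Lsm7 (0.86), of the ring that binds U6 RNA. Fbxw15 has close paralogs, so its counts are uncertain. Mirg was followed by Psrc1 (0.87), Aasdh (0.86) and Gm15624 (0.86). Without 24M replicate 3, and with the group means kept, these gave 0.84, 0.81 and 0.80 with Mirg. Those listed for Neat1 then gave 0.89, 0.87 and 0.84.

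The start sites of the genes that varied together were searched for shared letters. RefSeq promoters (GRCm38.p6, 250 bases before to 50 after the start) were found for 6 of the 7 genes, with 2 for Meg3, and none was given for Neat1. Those of Meg3 and Malat1 are shown, as the richest in motifs and as one without any. Capitals mark CCAAT, TGACGTCA (the cAMP response element) and TATAAA, read on both strands, where 2 matches to TATAAA overlap.
Meg3, chr12:109540746-109541045, plus strand: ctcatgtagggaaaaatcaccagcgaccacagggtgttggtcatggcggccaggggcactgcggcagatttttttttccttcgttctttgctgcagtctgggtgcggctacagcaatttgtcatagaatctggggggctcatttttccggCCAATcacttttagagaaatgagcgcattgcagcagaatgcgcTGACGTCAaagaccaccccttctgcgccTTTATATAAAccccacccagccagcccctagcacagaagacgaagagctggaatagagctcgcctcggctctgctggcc
Malat1, chr19:5802623-5802922, minus strand: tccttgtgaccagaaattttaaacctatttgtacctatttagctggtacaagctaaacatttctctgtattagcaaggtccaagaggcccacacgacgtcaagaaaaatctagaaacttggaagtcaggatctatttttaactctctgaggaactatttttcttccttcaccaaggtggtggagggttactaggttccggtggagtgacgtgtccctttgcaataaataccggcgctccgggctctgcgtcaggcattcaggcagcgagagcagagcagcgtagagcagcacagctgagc
Of 32851 promoters of this length, 13.6% hold TATAAA, 37.4% CCAAT and 1.79% TGACGTCA. Of the 8 motifs searched, Miat holds GGGCGG (35.7% of promoters), Rian TTCNNNGAA (8.30%), and Mirg CCAAT. Snhg11 and Malat1 hold none of them. No promoter of the 6 genes searched holds CACGTG (7.15%), TGANTCA (7.81%) or the interferon response element (3.44%), and Neat1 was not searched. No motif of the 8 was common to Malat1, Meg3, Miat and Snhg11. CpG dinucleotides numbered 25 in Miat, 21 in Snhg11, 13 in the first Meg3 promoter, 10 in Malat1 and in Mirg, and 0 in Rian, with a median of 7 over all promoters.

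The proteins that build the bodies in which Neat1 and Malat1 reside were looked at as lists. These lists were chosen with earlier results of these data known. Their calls and p-values are therefore a description, not independent tests. Over all genes tested, 26.1% at 24M and 17.3% at 29M had an unadjusted p under 0.05. Of 31 paraspeckle proteins, 3 rose at 24M and none fell, 11 had such a p, and the list had a median of 0.11 on the log2 scale. Srsf10, a splicing regulator, stood at 34.6 ± 4.56 CPM at 24M and 23.1 ± 3.93 at 3M (log2 fold change 0.59, SE 0.12, adjusted p = 0.0174 with edgeR). Cpsf6, of the complex that cuts messenger RNA ends, had 107 ± 23.6 against 73.8 ± 13.4 CPM (0.53, SE 0.14, adjusted p = 0.0466), with overlapping groups. Rbm3, a cold-inducible RNA-binding protein, had 16.8 ± 1.64 against 11.8 ± 1.27 CPM (0.51, SE 0.09, adjusted p = 0.0120). Of 26 nuclear speckle proteins, 1 rose at 24M, the splicing kinase Clk1, with 75.9 ± 19.4 against 53.8 ± 5.01 CPM (0.50, SE 0.14, adjusted p = 0.0481). Of the 26, 12 had an unadjusted p under 0.05, and the list median was 0.16. With the share of reads without a feature as a covariate none of the 4 was called, and the log2 fold changes were 0.41 for Srsf10, 0.26 for Cpsf6, 0.42 for Rbm3 and 0.22 for Clk1. The 4 calls fell to 1 without 24M replicate 3, to 0 without 24M replicate 2, to 1 without 3M replicate 3 or 4 and to 2 without 3M replicate 2 or 24M replicate 1, and rose to 7 without 3M replicate 5.
At 29M none of the 31 and none of the 26 was called by edgeR or DESeq2, and 8 and 14 had an unadjusted p under 0.05 in edgeR. Snrnp70, of the U1 splicing particle, had 157 ± 4.23 CPM at 29M and 128 ± 3.999 at 3M, a log2 fold change of 0.29 (SE 0.04, adjusted p = 0.00112) that is under the fold threshold. Rbm3 had 111 ± 4.06 against 86.1 ± 10.1 CPM (0.36, SE 0.07, adjusted p = 0.0105), also under it.

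No gene of the other lists, which were chosen with the same knowledge, was called at either age by edgeR. Of 13 genes for the RNase P cut and later processing of Malat1 and Neat1 ends, 0 at 24M and 1 at 29M had an unadjusted p under 0.05, and the gene with the smallest p was Pop1 at 24M (log2 fold change -0.19, SE 0.09, adjusted p = 0.207) and Mettl16 at 29M (-0.25, SE 0.07, adjusted p = 0.0668). Of 8 protein-coding genes in and around the Dlk1-Dio3 domain, 2 and 1 had an unadjusted p under 0.05. Dync1h1, a dynein chain gene beside the domain, gave -0.14 at 24M (SE 0.06, adjusted p = 0.146), and Dlk1, expressed from the paternal chromosome, gave 0.37 at 29M (SE 0.12, adjusted p = 0.117). Of 11 further small nucleolar RNA hosts tested, 2 and 3 had such a p, with Gas5 at 0.25 at 24M (SE 0.07, adjusted p = 0.0466, under the fold threshold) and Zfas1 at 0.18 at 29M (SE 0.07, adjusted p = 0.185). Of the other named long noncoding RNAs, 3 of 15 at 24M and 4 of 14 at 29M had an unadjusted p under 0.05. Pantr1 gave -0.35 at 24M (SE 0.07, adjusted p = 0.0192), and the microRNA host Mir124a-1hg gave 0.39 at 29M (SE 0.05, adjusted p = 0.00112), both under the fold threshold.
Over all other long noncoding RNA genes, 14 of 847 tested were called higher and 7 lower at 24M (median log2 fold change 0.019), and 9 of 702 higher and 0 lower at 29M (median 0.080).

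In the fit of all 4 groups the change at 29M exceeded that at 24M by 0.58 (SE 0.38) for Malat1, 0.38 (SE 0.37) for Meg3, 0.34 (SE 0.22) for Neat1, 0.32 (SE 0.34) for Miat and 0.11 (SE 0.37) for Snhg11 on the log2 scale. The difference was 0.06 (SE 0.23) for Mirg and -0.18 (SE 0.11) for Rian. Over 16055 genes, 0 had an adjusted p of at most 0.05 for this difference with edgeR, and 1674 had an unadjusted p under 0.05. Age and library type cannot be told apart here. In the same fit, which shares 1 estimate of the spread, Neat1 alone of the 7 was called at 29M, with standard errors of 0.27 to 0.30 for Malat1, Meg3, Miat and Snhg11.

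The tissue is labelled hippocampus, and none of the 10 neuron and 9 hippocampal neuron markers was at 0 in any sample. The markers too were chosen with earlier results of these data known, so their calls are a description. Of 8 microglia markers, 2 were called higher in each comparison, all 8 had a log2 fold change above 0, and none was at 0 in any sample. Their summed level was 371 to 426 CPM at 3M and 475 to 504 at 24M, and 359.8 to 372 at 3M and 466.1 to 489.5 at 29M. Of 8 astrocyte markers, 1 was called higher at each age and 6 at 24M and 7 at 29M lay above 0. Their median log2 fold change was only 0.052 at 24M and 0.046 at 29M, with highest values of 0.66 and 0.80. Summed levels were 7087 to 7726 CPM at 3M and 7776 to 8300.1 at 24M, without overlap. In the paired-end samples they were 6960.3 to 7119 CPM at 3M and 7527 to 7637 at 29M, also without overlap. How often such sums lie apart was not counted. The 10 neuron markers summed to 8897 to 9162 CPM at 3M and 8911 to 9939 at 24M, where 4 lay above 0, and to 8391 to 8941 CPM at 3M and 8185 to 8372 at 29M, where 2 lay above 0. 24M replicate 3 had the highest sum of hippocampal neuron markers, 1538 CPM against 1274 to 1328 in the other 24M samples. The 5 blood markers all lay above 0 in both comparisons, with 0 called at 24M (all 5 had an unadjusted p under 0.05) and 2 called higher at 29M by edgeR, and summed to levels that overlapped, with 53.2 to 108 CPM at 3M and 76.3 to 544 at 24M, and 70.5 to 83.6 at 3M and 75.7 to 165 at 29M. Of the 8 oligodendrocyte, 5 choroid plexus and 8 striatum markers none was called in either comparison by edgeR, and of the 5 endothelial markers 1 fell at 24M and 0 were called at 29M. The part of these cell types in the values of Neat1 and the other genes was not tested.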

How the data were processed

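PolyA-selected hippocampal RNA was sequenced in 17 libraries (TruSeq). The authors aligned reads with STAR 2.3.0 to GRCm38.p2 and counted them per gene with HTSeq (intersection-nonempty mode). They deposited whole-number counts for 38355 Ensembl identifiers, without normalization. Annotation release and strand setting for these counts are not given in the sources used here. Names were taken from GENCODE M21 for 36602 identifiers. Lines naming no gene (without a feature 8.59% to 15.9%, ambiguous 1.01% to 1.42%, not unique 10.8% to 26.6%) stayed out of library sizes and tests. These shares are of the reads on genes and in these lines.

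Counts of 24M replicates 1 and 4 were averaged and rounded, since this pair had the lowest variance ratio among 136 library pairs. Labels do not say whether libraries came from separate animals, so p-values measure the spread between these samples. Samples were grouped by the labels' age and library type. After TMM scaling and filterByExpr, edgeR 4.0.16 (R 4.3.3) fitted a quasi-likelihood model to the counts, and p-values were adjusted by Benjamini-Hochberg over 15683 genes at 24M and 15097 at 29M. DESeq2 1.42.0, other scalings and filters, a replicate block, the share of reads without a feature as a covariate and leaving out libraries were alternatives. A standard error is the size of the log2 change over the square root of its F value. On simulated data 199 of 200 changed genes were recovered at 24M (8 false calls, 15550 genes) and all 200 at 29M (6 false calls, 14948 genes), for a log2 fold change of 1.5.

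Correlations used log2 CPM minus the group mean with 100000 permutations within groups and adjustment over 28 relations. The genes, lists and markers were chosen with earlier results of these data known. Named were the 7 genes, called genes of each list (otherwise the 1 with the smallest p), and the 3 genes most like each of the 7. Counts limit precision most for Mirg.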

Additional observations from a re-analysis of the deposited data

Results flagged for a closer look

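In 12 of 60 groups of 5 samples looked at, 1 sample's gap to its neighbour was more than 0.71 of the whole range. For unrelated groups chance gives about 3. These groups are not unrelated, since most of the 12 fall on 24M replicate 3 and several genes varied together. The 12 are thus not read as an excess over chance. The gap was 0.859 of the range for Snhg11, 0.746 for Malat1, 0.733 for Miat and 0.727 for Meg3, each for 24M replicate 3 on the high side. The same sample stood out high in the share of reads without a feature (0.883), in the summed hippocampal neuron markers (0.796), in Mir124a-1hg (0.835) and in Snrnp70 (0.711). Over all genes it stood out high in 318 of 15683, or 2.03%. Their causes were not tested.

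Other samples stood out for no gene of the 7. 3M single-end replicate 4 was high in the summed striatum markers (0.836; 499 CPM beside a group median of 158), and 24M replicate 2 in the blood markers (0.822; 544 CPM beside a median of 135). 3M single-end replicate 3 was low in Clk1 (0.812), and 3M single-end replicate 5 high in Gas5 (0.750).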

How the results depend on the processing

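At 24M the 1 call (Neat1) fell to 0 with the replicate block, with the share of reads without a feature as a covariate, and with that covariate and without 24M replicate 3 (chosen after seeing the data), and was made in every fit that left out 1 library. At 29M the 5 calls fell to 1 with all 4 groups in 1 fit and were 3 to 5 with 1 library left out (3 without 29M replicate 1, where Malat1 and Miat were lost), and Miat alone was lost with both totals without TMM. Of the list genes called at 24M, 4 became 1 with totals of all lines, 0 with the block, the covariate, or the covariate without replicate 3, and 2 with 24M replicates 1 and 4 kept apart or both left out, with 0 to 7 when 1 library was left out. At 29M, 0 became 1 with the covariate, also without 29M replicate 2, and 0 to 2 with 1 library left out.
Signs turned at 24M with the covariate, without replicate 3 and with both for Malat1 (-0.16, -0.011 and -0.10), Meg3 (-0.19, -0.071 and -0.067) and Miat (-0.24, -0.13 and -0.13), for Snhg11 with the covariate (-0.074), and for Rian at 29M without 3M replicate 1 (0.0047). The standard errors of these turned values were 0.15 to 0.22 at 24M and 0.043 for Rian at 29M. Beside them the turned values are near 0 and are not read as reversals. With 1 library left out the highest values at 24M were 0.45 for Malat1, 0.41 for Meg3 and 0.35 for Miat, and the lowest for Rian at 29M was -0.075. The causes were not tested. How many of the 7 genes passed an adjusted p of 0.05 for r with the share is no evidence, since they were listed with that share in view. It was 1 (Rian), and 0 with CPM over all reads and without 24M replicate 3 (added after seeing the data), where r of Meg3 was -0.057. Over the paired-end samples, where r of Meg3 was -0.18, the few orders of 3 samples a group all but fix the count at 0, so it was not read. Median changes of the 7 genes with 1 library left out were 0.060 to 0.41 at 24M and 0.50 to 0.68 at 29M, and with the covariate -0.074 and 0.57. With totals of all lines the median over all genes was -0.068 at 24M and -0.032 at 29M, and the 24M calls split into 161 higher and 157 lower in place of 210 and 100. The replicate block left the 29M calls at 5. It gave Neat1 0.87 (SE 0.18) at 24M. Replicate numbers did not pair the samples (deviations of samples with the same number correlated at -0.18 to 0.11 over both comparisons).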
